A study of Homo sapiens with 5 samples.

Results

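Transcript levels of 34 genes of the G2 phase and mitosis were followed across 5 RNA-seq libraries of a human astroglial cell line and of clones of it that carry an IDH1 mutation. The genes were taken as a list of symbols, from cyclin A2 to FOXM1, and each symbol matched 1 gene identifier in the count files. They are 34 of 57905 genes with counts, and all 34 passed the filter on low counts that left 16471 genes for testing. Reads per gene and library ran from 357 to 18395 over the list.

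The cells were SVG-10B1, an established human astroglial line grown in medium with fetal calf serum. SVG lines come from fetal glia immortalised with the large T antigen of a polyomavirus, a protein that binds the RB family. The wild-type line, which the labels call clone 1, was sequenced as 2 libraries. The edited cells, with the IDH1 genotype R132H/WT, came as 1 library of clone 2 and 2 libraries of clone 6. IDH1 is the cytosolic isocitrate dehydrogenase, and the R132H enzyme makes 2-hydroxyglutarate. The labels list no treatment and no further unedited clone, so the edit and differences between clones cannot be told apart, and n counts libraries rather than independently edited clones. They also do not say whether replicates were separate cultures, so the spread behind the p-values is that of these samples and may be technical.

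Entry into mitosis is driven by CDK1 with B-type cyclins, which the CDC25 phosphatases switch on and PLK1 and the Aurora kinases assist. The spindle checkpoint then holds the anaphase-promoting complex (APC/C) until every kinetochore is attached, and its activator CDC20 starts cyclin B destruction and exit. Most of these genes are transcribed together late in the cycle by B-MYB, FOXM1 and the MuvB complex, and are silenced in resting cells by the DREAM complex. MuvB binds a short promoter element, the cell cycle genes homology region (CHR), often downstream of CCAAT boxes that bind NF-Y. Their summed RNA is widely read as a sign of how many cells in a culture are dividing. In bulk RNA, fewer cells of a stage and less RNA per cell cannot be told apart.

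The promoters show what the list has in common outside the counts. RefSeq windows on GRCh38.p14, from 250 bases before to 50 after a transcript start, were found for 28 of the 34 genes. There were none for AURKA, BIRC5, TPX2, TTK, UBE2C and FOXM1 in the table used. Each window was searched on both strands for CCAAT and for the CHR cores TTTGAA and TTTAAA as well as TTCGAA, with the lowest-coordinate window taken where a gene has several starts. Those of 6 genes are printed as 5′ to 3′ in the direction of transcription, with matches in capitals (ATTGG is CCAAT on the other strand). They were chosen after the values were seen. PLK1 (chr16:23678639-23678938, plus strand), KIF20A (chr5:138178862-138179161, plus strand) and MKI67 (chr10:128126374-128126673, minus strand) had RNA far lower in clone 6 replicate 2. KIF2C (chr1:44739587-44739886, plus strand) and PRC1 (chr15:90994486-90994785, minus strand) were called in the test of genotype. NUF2 (chr1:163321704-163322003, plus strand) was nearly level across the edited libraries.
PLK1: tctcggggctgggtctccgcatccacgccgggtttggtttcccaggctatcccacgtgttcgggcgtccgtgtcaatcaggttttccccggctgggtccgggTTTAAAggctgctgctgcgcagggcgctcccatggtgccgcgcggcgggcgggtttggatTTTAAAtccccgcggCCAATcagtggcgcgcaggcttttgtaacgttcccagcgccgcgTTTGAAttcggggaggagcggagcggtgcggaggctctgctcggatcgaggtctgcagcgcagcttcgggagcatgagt
KIF20A: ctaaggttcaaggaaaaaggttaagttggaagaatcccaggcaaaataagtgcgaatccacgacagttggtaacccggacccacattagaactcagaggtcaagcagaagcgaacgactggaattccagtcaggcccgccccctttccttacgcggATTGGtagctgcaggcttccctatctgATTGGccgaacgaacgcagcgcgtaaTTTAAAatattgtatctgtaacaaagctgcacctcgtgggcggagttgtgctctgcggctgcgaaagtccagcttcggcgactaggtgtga
MKI67: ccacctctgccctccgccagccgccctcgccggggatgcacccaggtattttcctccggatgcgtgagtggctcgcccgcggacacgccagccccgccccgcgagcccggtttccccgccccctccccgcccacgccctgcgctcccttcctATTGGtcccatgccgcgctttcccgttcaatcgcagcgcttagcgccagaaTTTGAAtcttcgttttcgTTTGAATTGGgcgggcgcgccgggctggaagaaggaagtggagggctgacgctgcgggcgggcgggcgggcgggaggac
KIF2C: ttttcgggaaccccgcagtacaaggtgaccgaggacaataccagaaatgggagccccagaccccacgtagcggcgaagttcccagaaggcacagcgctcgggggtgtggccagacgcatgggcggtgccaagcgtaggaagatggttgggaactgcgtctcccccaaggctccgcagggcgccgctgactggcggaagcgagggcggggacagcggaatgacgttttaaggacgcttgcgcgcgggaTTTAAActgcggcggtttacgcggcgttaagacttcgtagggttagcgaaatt
PRC1: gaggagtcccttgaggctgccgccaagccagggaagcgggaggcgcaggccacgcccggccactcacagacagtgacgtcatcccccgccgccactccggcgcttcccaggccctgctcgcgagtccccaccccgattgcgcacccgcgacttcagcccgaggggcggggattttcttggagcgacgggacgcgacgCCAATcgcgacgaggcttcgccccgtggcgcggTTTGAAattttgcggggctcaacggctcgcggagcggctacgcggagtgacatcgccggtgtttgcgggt
NUF2: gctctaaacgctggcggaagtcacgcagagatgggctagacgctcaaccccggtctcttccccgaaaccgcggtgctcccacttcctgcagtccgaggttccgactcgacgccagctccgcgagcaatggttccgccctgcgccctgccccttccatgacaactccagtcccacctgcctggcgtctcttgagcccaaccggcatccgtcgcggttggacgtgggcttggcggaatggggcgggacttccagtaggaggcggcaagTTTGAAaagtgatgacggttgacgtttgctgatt

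A CHR core lay in 25 of the 28 windows (89.3%), against 21.2% of 15843 windows of protein-coding genes, 1 window a gene. TTTGAA was present in 20 (71.4%, against 12.5%), TTTAAA in 11 (39.3%, against 9.83%) and TTCGAA in 2 (7.14%, against 1.57%). CCAAT was present in 21 (75%, against 36.0%), and 19 windows held both CCAAT and a CHR core (67.9%, against 8.67%). The windows without a core were those of CCNA2, CDC25B and AURKB. CDC25B has other annotated starts, and among their windows 1 holds TTCGAA 38 bases before the start and another holds TTTAAA 33 bases after it. In MKI67 a TTTGAA and a reversed CCAAT overlap within TTTGAATTGG. PLK1 holds TTTGAA 29 bases before the start, and KIF20A holds TTTAAA 41 bases before it. KIF2C has its only match, TTTAAA, 3 bases before the start and no CCAAT, and NUF2 has its only match, TTTGAA, 17 bases after it. A match of letters is a description and does not show that a factor binds there.

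**Figure D1:**
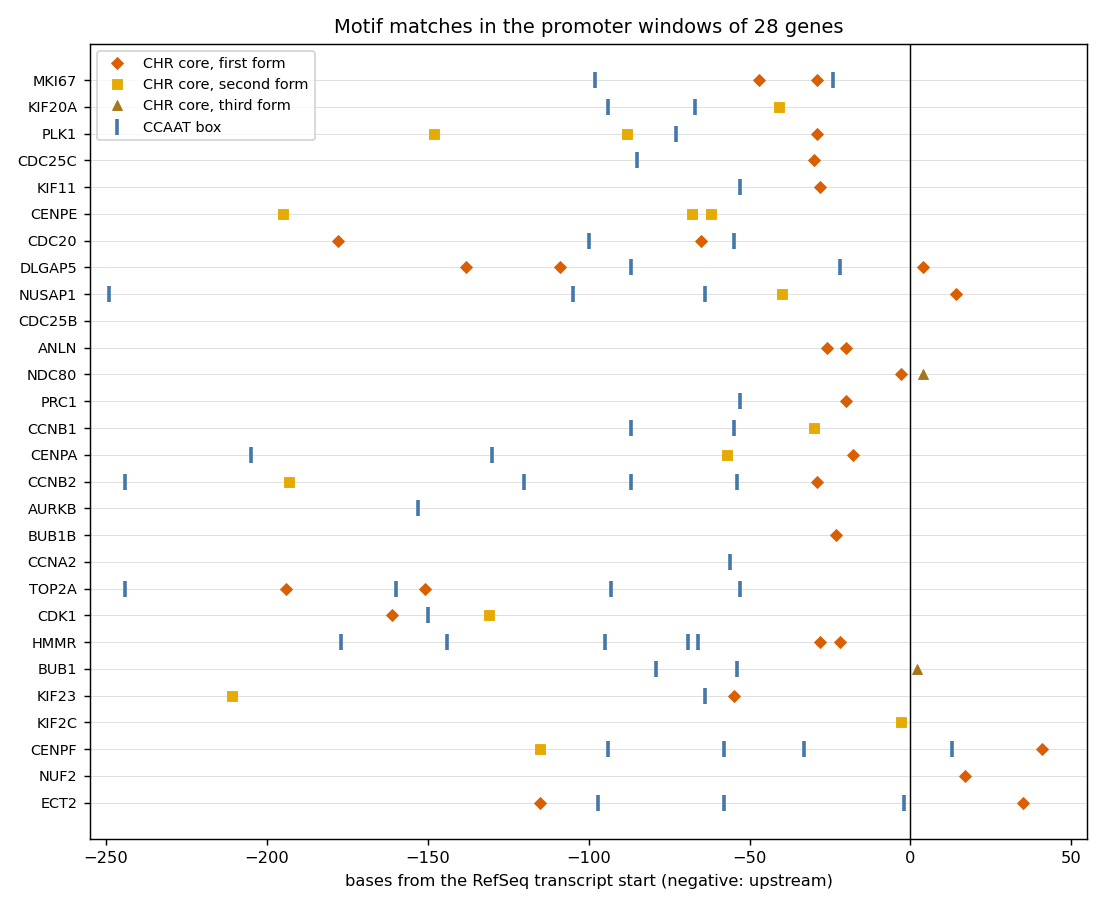
Positions of CHR cores (diamonds, TTTGAA; squares, TTTAAA; triangles, TTCGAA) and CCAAT boxes in the promoter windows of 28 genes, as bases from the RefSeq transcript start. Genes run from the lowest to the highest RNA level of clone 6 replicate 2 relative to the other edited libraries, and each symbol marks the base of a match farthest upstream. Matches of 25 genes include a CHR core, most of them upstream of the start.

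Libraries held 13572114 to 21881726 reads assigned to genes, and ribosomal RNA genes took 0.417 to 9.79% of them. The clone 2 and clone 6 replicate 1 libraries were closer to each other than the libraries labelled as clone 6 replicates were, which goes against the labels, and clone 6 replicate 2 stood apart. Over the 34 genes the median absolute log2 difference was 0.073 within the wild-type pair, 0.057 between clone 2 and clone 6 replicate 1, 0.27 within the clone 6 pair, and 0.29 between clone 2 and clone 6 replicate 2. Every comparison of a clone rests on these labels, and whether cultures or labels were exchanged was not tested. Results for edited cells are therefore given with and without clone 6 replicate 2. Of the astroglial markers, GFAP had 5 to 9 reads in a library, S100B 1 read in all, and AQP4 and FABP7 none, where 3 reads are 0.139 to 0.230 CPM. GJA1 (156 to 452 CPM) and CLU (33.9 to 130 CPM) were present.

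Levels are in CPM, the read counts per library brought to a common size after TMM scaling, and 5 values in a row stand for wild-type replicates 1 and 2, clone 2, and clone 6 replicates 1 and 2. Summed over the 34 genes, the level was 7756, 7723, 8046, 7738 and 6371 CPM. Clone 2 thus held 104% of the wild-type mean and clone 6 replicate 1 99.98%, while clone 6 replicate 2 held 82.3%. Per kilobase of exon (union of GENCODE 29 exons), CCNB1 was the most abundant at a mean of 207 CPM per kb. TOP2A (139), CDC20 (128), ANLN (119) and AURKA (105 CPM per kb) followed. The lowest were CDC25B at 16.2 and CDC25C at 11.6 CPM per kb, and MKI67, with far longer exons, had 23.3 CPM per kb.

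**Figure D2:**
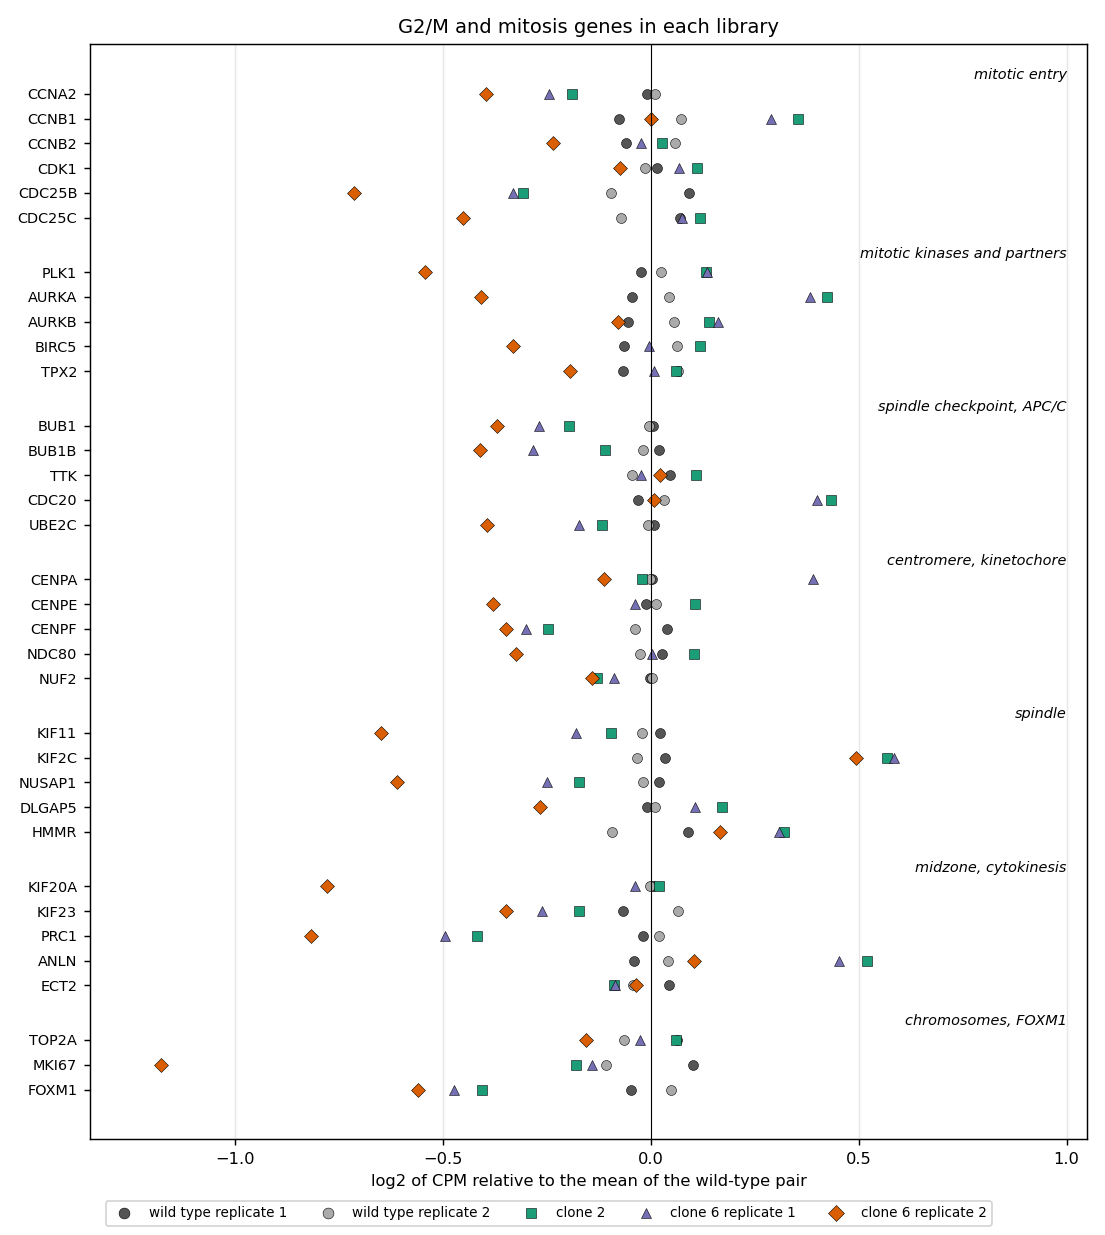
Level of each gene in each library as log2 of its CPM over the mean of the wild-type pair, grouped by role, with 1 symbol per library. Clone 6 replicate 2 (diamonds) is the lowest symbol for 27 of the 34 genes, and KIF2C, HMMR and ANLN have all 3 edited libraries above both wild-type libraries.

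Setting the 3 edited libraries against the wild-type pair asked which of these genes differ between the genotypes. KIF2C rose, and PRC1 and FOXM1 fell, at an adjusted p below 0.05 in edgeR's quasi-likelihood test over all genes. That is 1 gene higher, where 7.64% of all tested genes were called higher, and 2 lower, where 9.49% were, or 8.82% of the list in either direction against 17.1% of all genes. The median log2 fold change of the 34 genes was -0.07, against 0.02 over all genes. All edited libraries lay above both wild-type libraries for 3 genes (26.1% of all genes) and below both for 13 (25.3% of all genes). At an unadjusted p below 0.05 in edgeR there were 12 of the 34 (35.3% of the list, against 32.8% of all genes).

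KIF2C, a kinesin that takes microtubules apart at centromeres (ENSG00000142945, chr1:44739818-44767767 on GRCh38, plus strand), had 150 and 143 CPM in the wild-type libraries. Clone 2 reached 216 CPM, and the clone 6 replicates 219 and 206 CPM. The genotypes did not overlap, and the edited libraries were close together. KIF2C rose from 146 ± 4.91 CPM (SD, n = 2) to 214 ± 7.13 CPM (SD, n = 3), or by 0.55 on the log2 scale with an SE of 0.085 (edgeR adjusted p = 0.00787). Without wild-type replicate 1 or 2 its adjusted p was 0.080 and 0.0886, with log2 fold changes of 0.58 and 0.51.

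PRC1 bundles the antiparallel microtubules of the anaphase midzone (ENSG00000198901, chr15:90966038-90995629 on GRCh38, minus strand). It had 303, 311, 230, 218 and 174 CPM. Every edited library was below both wild-type libraries, and clone 6 replicate 2 was the lowest. Its mean fell from 307 ± 5.65 to 207 ± 29.3 CPM, a change of -0.57 in log2 with an SE of 0.129 (edgeR adjusted p = 0.0275). Its adjusted p was 0.166 without either wild-type library, 0.0671 without clone 6 replicate 1, 0.057 with clone 2 and clone 6 replicate 1 summed into 1 library, and 0.0538 with the share of ribosomal RNA in the model. Exons of other annotated genes cover 65.2% of its exon bases on the same strand, and the antisense gene PRC1-AS1 had 154 reads in all, so its count could hold or lack reads of neighbours. The gene on the same strand, AC068831.7, was not among the genes with counts under that symbol.

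FOXM1, the transcription factor that drives much of the late cell cycle programme (ENSG00000111206, chr12:2857681-2877155 on GRCh38, minus strand), had 134 and 143 CPM in wild type. The edited libraries had 104, 99.6 and 93.6 CPM, a narrow group below both wild-type libraries. The FOXM1 mean fell from 138 ± 6.55 to 99.1 ± 5.33 CPM, a change of -0.48 in log2 with an SE of 0.0912 (edgeR adjusted p = 0.0157). Its adjusted p was 0.0999 and 0.134 without wild-type replicates 1 and 2, and 0.0615 without clone 6 replicate 1. CENPF, a large kinetochore protein, came nearest among the rest, with 747, 708, 613, 591 and 571 CPM (log2 fold change -0.30, SE 0.0848, edgeR adjusted p = 0.056). Its groups did not overlap, and it passed the threshold in DESeq2 (adjusted p = 0.0188).

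Clone by clone, against the same wild-type pair, the counts were lower. Clone 2 is 1 library, so the spread in its tests came from the wild-type and clone 6 pairs. The median absolute log2 difference over the list was 0.073 within the wild-type pair and 0.27 within the clone 6 pair. A lack of calls in clone 2, or between the clones, therefore does not show equal levels. Clone 2 gave no call among the 34 genes (3.81% of all genes were called by edgeR, 1.65% higher and 2.16% lower), with 3 at an unadjusted p below 0.05 (18.7% of all genes) and a lowest adjusted p of 0.0969. DESeq2 also called none of the 34 there, and 937 of all genes. Its median log2 fold change was 0.04. Clone 6 had 1 gene higher (3.87% of all genes), KIF2C at a log2 fold change of 0.54 (edgeR adjusted p = 0.0434), and 1 lower (5.11% of all genes), PRC1 at -0.65 (edgeR adjusted p = 0.0451). These 2 genes are 5.88% of the list, where 8.98% of all genes were called in either direction, and 10 had an unadjusted p below 0.05 (29.4%, against 26.5% of all genes). FOXM1 stood at -0.52 in clone 6 (edgeR adjusted p = 0.0507), and the median was -0.16. Between the clones edgeR called none of the 34 genes and none of all 16471, with 0 of the 34 and 114 of all genes (0.692%) at an unadjusted p below 0.05, while DESeq2 called 0 of the 34 and 2 of all genes.

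These counts turned on clone 6 replicate 2. Without it, 6 of the 34 genes were called higher in the edited libraries (CCNB1, AURKA, CDC20, KIF2C, HMMR and ANLN) and 9 lower (CCNA2, CDC25B, BUB1, BUB1B, CENPF, NUSAP1, KIF23, PRC1 and FOXM1), and 5971 of all genes were called in place of 2822, all by edgeR. These are 17.6% and 26.5% of the list, where 17.2% of all genes were called higher and 19.7% lower. The edited group is then only the close pair of clone 2 and clone 6 replicate 1. Without wild-type replicate 1 or 2 no gene of the list was called, and 500 or 697 of all genes were. Without clone 6 replicate 1 edgeR called KIF2C alone on the list, and 1525 of all genes.

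The rule of the list sets clone 6 replicate 2 against the other libraries, and since it is 1 library there is no test. It had the lowest level of the 5 libraries in 27 of the 34 genes (28.1% of all tested genes, and 24.4% of the 7650 genes with a mean of at least 20 CPM). It was the highest in 0 of 34 (28.3% of all genes). It was below both other edited libraries in 32 of 34 (42.5% of all genes), the exceptions being TTK and ECT2. The median log2 ratio to the mean of clone 2 and clone 6 replicate 1 was -0.28 over the list and -0.01 over all genes, and to the wild-type mean -0.34 and -0.01. It lay below both wild-type libraries in 27 of 34 (43.6% of all genes) and above both in 3, KIF2C, HMMR and ANLN (42.7% of all genes). A 95% counting interval, which covers counting error only, lay below 0 for 31 of the 34 ratios to the other edited libraries (23.2% of all genes, and 27.1% of those with at least 20 CPM) and above 0 for none (27.2% of all genes). The 3 others were NUF2, TTK and ECT2.

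At least 1.5-fold lower than the other edited libraries were 4 genes (16.0% of all genes, and 4.27% of those with at least 20 CPM), named here after their values were seen: MKI67, AURKA, KIF20A and PLK1. No gene was 1.5-fold higher (8.96% of all genes). Relative to wild type, 6 were at least 1.5-fold lower (20.9% of all genes, and 9.20% of those with at least 20 CPM) and 0 higher (15.1%). Those 6, also named after their values were seen, were MKI67 (44.1% of wild type), PRC1 (56.7%), KIF20A (58.3%), CDC25B (61.0%), KIF11 (63.7%) and NUSAP1 (65.4%). With size factors by other methods or by total reads, 33 or 34 of the 34 genes were below the mean of the other edited libraries in clone 6 replicate 2, and ECT2 was the one above it where 33 were below.

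**Figure D3:**
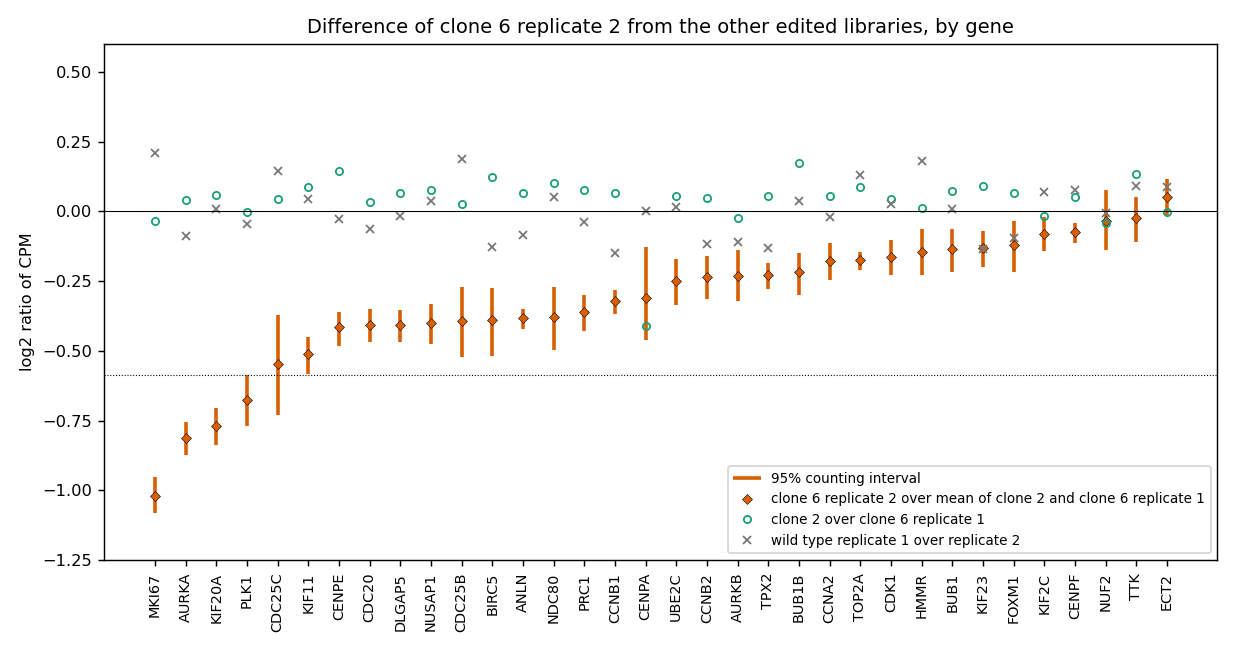
Log2 ratio of CPM in clone 6 replicate 2 to the mean of clone 2 and clone 6 replicate 1 for each gene (diamonds, with 95% counting intervals), beside the ratio of clone 2 to clone 6 replicate 1 (circles) and of the wild-type replicates (crosses). The dotted line is 1.5-fold lower; ratios run from -1.02 for MKI67 to 0.05 for ECT2, and the circles lie near 0 except for CENPA.

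Fibroblast and pericyte markers were lower in clone 6 replicate 2 than in both other edited libraries, for 8 of 8 tested (42.5% of all genes). Relative to wild type, 6 were at least 1.5-fold lower there (20.9% of all genes) and 2 higher (15.1%). Those 2 were RGS5 and PDGFRA, the latter on 24 reads in that library. The summed level of 10 fibroblast and pericyte markers, 8 of which passed the filter, was 2232, 1986, 1826, 1863 and 623 CPM. Most of it was COL1A1, at 1894, 1691, 1607, 1645 and 512 CPM, while DCN had 0 or 1 read a library and COL1A2 0 to 9. Ribosomal RNA took 0.631% of the reads of clone 6 replicate 2, between 0.417% in clone 2 and 9.79% in clone 6 replicate 1. The part of these in the lower mitotic levels was not tested. Some of these markers also differed between the genotypes. By edgeR COL3A1, PDGFRB and ACTA2 fell (adjusted p = 0.0057, 0.044 and 0.0458) and RGS5 rose (adjusted p = 0.00571). COL3A1 had 180, 137, 39.7, 40.3 and 18.2 CPM, and RGS5 had 6.56, 5.83, 65.1, 64.9 and 25.95 CPM. ACTA2 had only 30, 24, 10, 7 and 5 reads. The endothelial markers TEK, TIE1 and FLT1 fell by edgeR (adjusted p = 0.0297, 0.000171 and 0.0191). FLT1 had 20 and 11 reads in wild type and 0 in each edited library. VWF was not called (log2 fold change 0.62). The endothelial list summed to 41.6, 37.0, 13.2, 13.1 and 9.13 CPM, with CDH5 at 0 to 6 reads. The part of either list in the genotype results was not tested. Neuronal markers summed to 10.1 to 17.9 CPM and immune markers to 0.876 to 2.50 CPM. Both wild-type libraries had lower neuronal sums than every edited library. With genotype GAD1 was the only neuronal marker called, at a log2 fold change of 1.29 (edgeR adjusted p = 0.003). Among astroglial markers GJA1 and CLU rose, by 1.26 and 1.68 in log2 (edgeR adjusted p = 0.0022 and 0.00177). GLUL fell (log2 fold change -1.05, edgeR adjusted p = 0.00151), and SLC1A3, SOX9 and ALDOC were not called.

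Mitotic entry genes summed to 83.2% of the other edited libraries in clone 6 replicate 2, and 6 of 6 were lower there than in either. CCNB1, the cyclin B1 that activates CDK1, had 386, 428, 521, 498 and 408 CPM. Its levels in clone 2 and clone 6 replicate 1 were above both wild-type libraries, and clone 6 replicate 2 lay within the wild-type pair (log2 ratio to wild type 0.00). CDK1 itself differed little, with 205, 201, 220, 213 and 193 CPM, the lowest in clone 6 replicate 2 at a log2 ratio to the other edited libraries of -0.16 (interval -0.23 to -0.10).

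CCNA2, the cyclin of S phase and G2, had 228, 231, 201, 193 and 174 CPM, with wild type above every edited library. CCNB2 had 126 to 154 CPM. Among the phosphatases that activate CDK1, CDC25B had 81.3 and 71.4 CPM in wild type and 61.7, 60.6 and 46.5 CPM in the edited libraries. CDC25C, the least abundant of the list per kilobase, had 29.1 to 33.2 CPM in 4 libraries and 22.3 CPM in clone 6 replicate 2, 68.4% of the other edited libraries. Of its exon bases 10.7% overlap FAM53C on the opposite strand, and reads of the pair cannot be told apart if strand was not used.

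Relative to the other edited libraries, the kinases and their partners had the lowest sum of any role in clone 6 replicate 2, at 72.4%. In 5 of 5 genes that library was the lowest. AURKA, the kinase of spindle poles, had 256, 273, 355, 345 and 199 CPM. The edited libraries lay on both sides of wild type, and the genotype test set their mean against it (log2 fold change 0.18, edgeR adjusted p = 0.647). The log2 ratio of clone 6 replicate 2 to the others was -0.81 (interval -0.87 to -0.76). PLK1, which acts from mitotic entry to cytokinesis, had 116, 119, 129, 129 and 80.6 CPM and a ratio of -0.68 (interval -0.77 to -0.59). Its edited libraries also lay on both sides of wild type, with clone 6 replicate 2 below.

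AURKB, the kinase of the chromosomal passenger complex, had 90.5, 97.7, 104, 105 and 89.0 CPM, and BIRC5, the survivin subunit of that complex, had 60.1, 65.7, 68.3, 62.7 and 49.97 CPM. TPX2, which activates AURKA on the spindle, was the most abundant kinase partner at 365, 400, 399, 384 and 334 CPM. Each of these was lowest in clone 6 replicate 2, by less than for AURKA or PLK1 (log2 ratios of -0.23, -0.39 and -0.23).

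In all, 6 genes were above both wild-type libraries in clone 2 and in clone 6 replicate 1 and below both in clone 6 replicate 2 (5.94% of all genes): CDK1, CDC25C, PLK1, AURKA, AURKB and DLGAP5. They were picked out after their values were seen. The clone 6 replicates therefore gave opposite directions for them relative to wild type, and none was called in any test with all 5 libraries.

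Among spindle checkpoint and APC/C genes, CDC20, the activator of the APC/C, had 202, 212, 279, 273 and 208 CPM. As with CCNB1, clone 6 replicate 2 was at the wild-type level. BUB1B, a checkpoint component that holds CDC20, had 180, 176, 165, 146 and 134 CPM, and the kinase BUB1 had 165, 164, 144, 137 and 128 CPM. Both were below wild type in every edited library without passing the test (edgeR adjusted p = 0.146 and 0.0794).

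UBE2C, the ubiquitin-conjugating enzyme of the APC/C, had 145 and 143 CPM in wild type and 133, 128 and 110 CPM in the edited libraries. TTK, the kinase that starts checkpoint signalling, stayed between 112 and 125 CPM, and its ratio of -0.02 (interval -0.11 to 0.05) showed no difference beyond counting error. The role summed to 84.8% of the other edited libraries in clone 6 replicate 2.

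Kinetochore genes summed to 88.5%, the smallest difference of any role, and CENPF, described above, made up most of that sum. CENPE, a kinesin that moves chromosomes to the metaphase plate, had 246, 251, 267, 242 and 191 CPM, a log2 ratio of -0.41 (interval -0.48 to -0.36). NDC80 and NUF2 are partners in the complex that grips microtubules, and their ratios differed beyond counting error. NDC80 had 57.4 CPM in clone 6 replicate 2 against 70.7 to 77.4 CPM elsewhere, while NUF2 had 69.2 CPM against 69.7 to 76.5 CPM. Their log2 ratios were -0.38 (interval -0.50 to -0.27) and -0.03 (interval -0.14 to 0.07).

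CENPA, the histone H3 variant of centromeres, had 29.4, 29.4, 28.97, 38.5 and 27.2 CPM. Clone 6 replicate 1 alone was high, and this was the largest difference between that library and clone 2 on the list (0.41 on the log2 scale, against 0.17 for the next gene).

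Of the spindle genes, DLGAP5, a microtubule stabiliser near chromosomes, had 255, 258, 289, 276 and 213 CPM. KIF11, the kinesin that pushes spindle poles apart, had 254, 246, 234, 220.5 and 159 CPM. In KIF11 clone 6 replicate 2 was well below the rest, at 70.1% of the other edited libraries (log2 ratio -0.51, interval -0.58 to -0.45).

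NUSAP1, a microtubule binding protein, had 221, 215, 193, 183 and 143 CPM, but 72.8% of its exon bases overlap AC087721.2 on the same strand, which was not among the genes with counts under that symbol. HMMR, a spindle assembly factor, had 107 and 94.1 CPM in wild type and 125, 124 and 113 CPM in the edited libraries, all above wild type (edgeR adjusted p = 0.122). KIF2C was the spindle gene nearest to the other edited libraries in clone 6 replicate 2, with a ratio of -0.08 (interval -0.14 to -0.02), and it stayed at 141% of wild type there.

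Genes of the midzone and cytokinesis split. For 2 genes clone 2 lay above both wild-type libraries and both clone 6 libraries below them (2.37% of all genes had the clones on opposite sides), CENPE and KIF20A. KIF20A, a midzone kinesin that recruits PLK1, was level in 4 libraries, at 261, 260, 264 and 253 CPM, and had 152 CPM in clone 6 replicate 2 (log2 ratio -0.77, interval -0.84 to -0.71). ANLN, the scaffold of the contractile ring, had 471, 499, 695, 663 and 520 CPM. Its edited libraries were all above wild type (log2 fold change 0.37, edgeR adjusted p = 0.115).

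KIF23, the kinesin of the centralspindlin complex, had 224 and 246 CPM in wild type and 208, 196 and 184 CPM in the edited libraries. ECT2, the exchange factor that centralspindlin brings to the midzone to switch on RhoA, was the steadiest of the list, between 188 and 206 CPM. Its ratio was 0.05 (interval -0.01 to 0.12), so these partners were not ordered alike across the edited libraries.

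TOP2A, the topoisomerase that untangles sister chromatids, was the most abundant of the list in CPM, with 850, 778, 848, 799 and 730 CPM. Clone 6 replicate 2 was the lowest, by -0.17 on the log2 scale (interval -0.21 to -0.15). MKI67, the proliferation antigen Ki-67 that coats mitotic chromosomes, had 374, 324, 308, 316 and 154 CPM. At 49.4% of the other edited libraries (log2 ratio -1.02, interval -1.08 to -0.95), MKI67 was the farthest from them on the list, and its difference within the wild-type pair was 0.21.

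**Figure D4:**
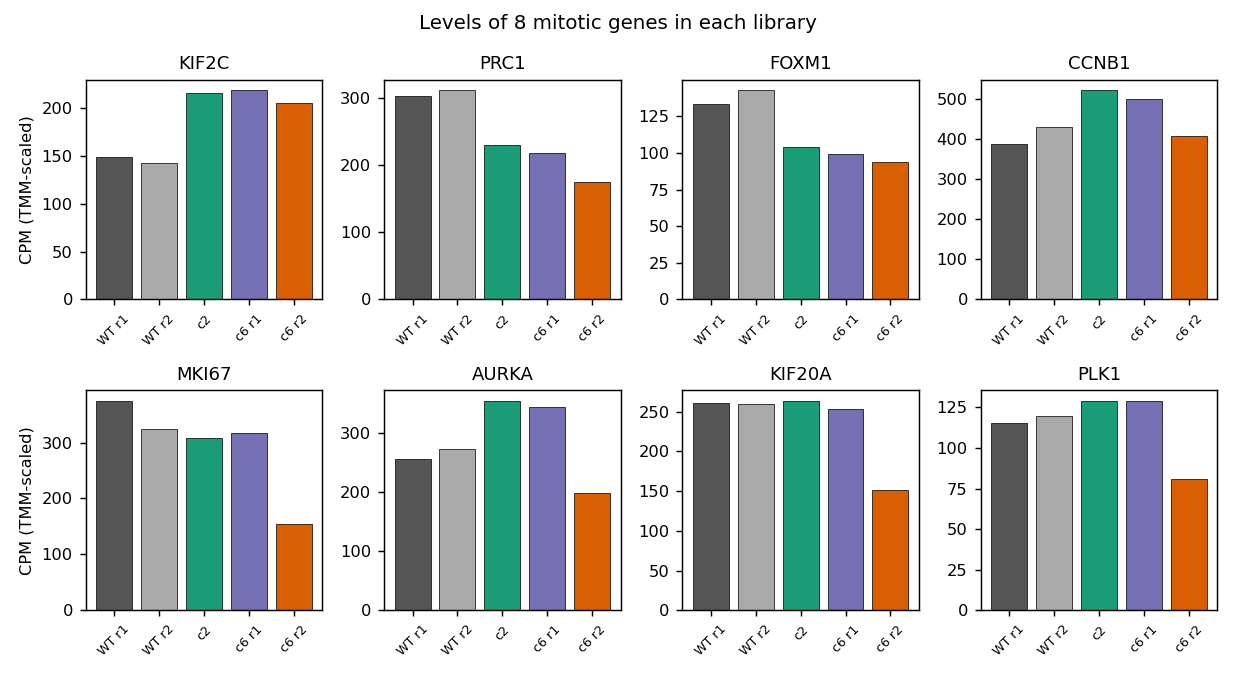
CPM of 8 genes in each library (WT r1 and r2, wild-type replicates; c2, clone 2; c6 r1 and r2, clone 6 replicates), 1 bar per library with axes from 0. KIF2C is higher and PRC1 and FOXM1 are lower in all 3 edited libraries; MKI67, AURKA, KIF20A and PLK1 are lowest in clone 6 replicate 2, while CCNB1 is there at 408 CPM, within the wild-type pair.

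Across the 34 genes the log2 ratio of clone 6 replicate 2 to the other edited libraries showed Pearson's r of -0.13 and Spearman's rho of 0.09 with log2 exon length, and -0.30 for both with GC content. These describe genes that share the same 3 libraries. Over 7560 genes of at least 20 CPM, r and rho with GC content were -0.17 and -0.22.

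Other lists of cell cycle genes place these values. Over all tested genes, edgeR called 7.64% higher and 9.49% lower with genotype. Of 51 further mitotic genes (condensins, kinetochore and spindle proteins), 1 rose and 7 fell with genotype in edgeR, with a median log2 fold change of -0.18. The 4 with the lowest p were KIF20B, CKAP2L, SKA3 and ARHGAP11A, which fell by 0.68, 0.73, 0.76 and 0.53 on the log2 scale (edgeR adjusted p = 0.00389, 0.0047, 0.00599 and 0.00722). In 36 of the 51 the lowest library was clone 6 replicate 2 (28.1% of all genes), and its median log2 ratio to the other edited libraries was -0.26.

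The 4 most abundant of that list were uneven. ASPM, a spindle pole protein, had 396, 356, 289, 295 and 174 CPM, and clone 6 replicate 2 was at 59.6% of the other edited libraries. The condensin subunit NCAPD2 had 402, 366, 399, 382 and 331 CPM. SMC4, a core subunit of condensin, had 369, 362, 367, 339 and 325 CPM, and its partner SMC2 had 219, 206, 195, 186 and 196 CPM.

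The 17 APC/C subunits and partners had 0 genes called higher and 0 lower with genotype in edgeR. The median ratio of clone 6 replicate 2 to the other edited libraries was 0.00 on the log2 scale. That library was the lowest of the 5 in 5 of 17 (28.1% of all genes). Of 15 regulators of the DREAM, MuvB and NF-Y kind, TFDP2 rose and TFDP1 fell, by 0.39 and 0.44 on the log2 scale (edgeR adjusted p = 0.0442 and 0.0416). In 4 of these 15 clone 6 replicate 2 was the lowest library (28.1% of all genes), and the median ratio was 0.09.

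Among 13 checkpoint and CDK inhibitor genes, 2 rose (7.64% of all genes). CDKN1B, the p27 inhibitor of cyclin-CDK complexes, rose from 61.1 ± 3.53 CPM (SD, n = 2) to 144 ± 9.66 CPM (SD, n = 3), or by 1.24 on the log2 scale with an SE of 0.102 (edgeR adjusted p = 0.000907). CDKN1A, the p21 inhibitor, rose by 0.65 on that scale, from 116 ± 15.2 to 182 ± 11.3 CPM (edgeR adjusted p = 0.0117). ATM, a kinase of the DNA damage response, fell by 0.43 on the log2 scale (edgeR adjusted p = 0.0185). CDKN1A and CDKN1B were not higher in clone 6 replicate 2 than in the other edited libraries, with 171 and 133 CPM against 183 to 194 and 147 to 152 CPM.

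Of 24 G1/S and replication genes, 1 rose and 2 fell (7.64% and 9.49% of all genes). CDC6, which loads the replicative helicase, rose by 0.77 on the log2 scale (edgeR adjusted p = 0.0314), with 146, 156, 232, 217 and 327 CPM, highest in clone 6 replicate 2. CDK6 and POLA1, a G1 kinase and a DNA polymerase subunit, fell by 0.44 and 0.40 (edgeR adjusted p = 0.0144 and 0.0263). The list summed to 98.0% of the other edited libraries in clone 6 replicate 2, against 80.7% for the 34 mitotic genes. Its median log2 ratio was -0.04, with 10 of 24 lowest there (28.1% of all genes). The list was not level gene by gene, as 2 of 24 were at least 1.5-fold lower (16.0% of all genes) and 0 higher (8.96%). Those 2, named after their values were seen, were CCND1 and CCNE1, at 55.6% and 55.9% of the other edited libraries. CDC6 was at 146%.

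**Figure D5:**
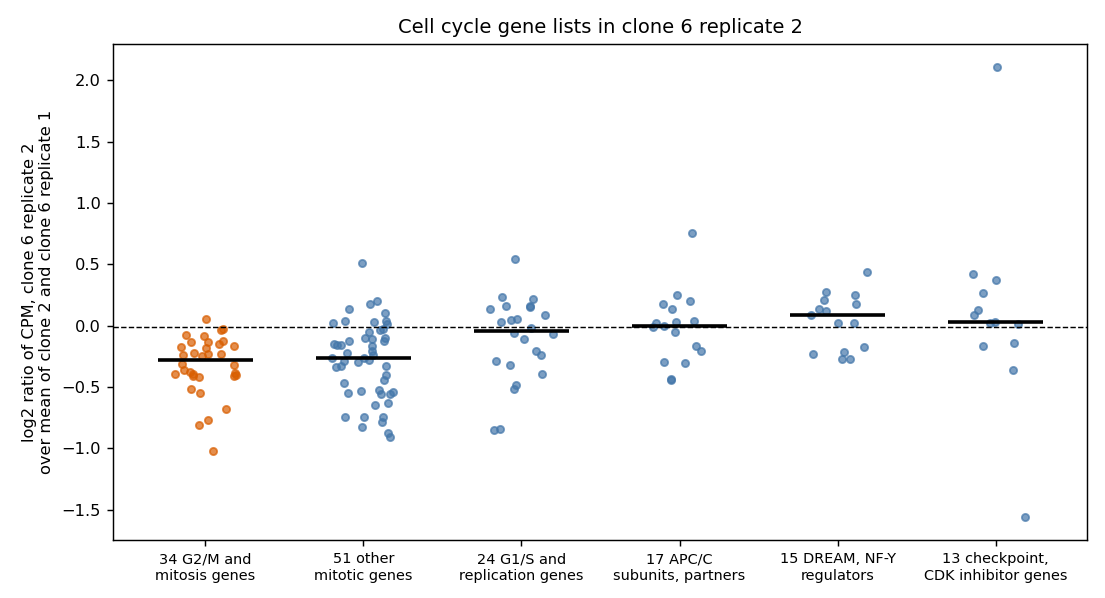
Log2 ratio of CPM in clone 6 replicate 2 to the mean of clone 2 and clone 6 replicate 1, 1 point per gene, for the 34 genes and 5 other cell cycle lists; bars are medians and the dashed line is the median of all tested genes. Medians are -0.28 and -0.26 for the mitotic lists and between -0.04 and 0.09 for the others.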

How the data were processed

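The labels' protocols describe Illumina HiSeq sequencing of total RNA from 5 cell line samples. Trimmomatic, STAR, HTSeq and hg19 (GRCh37) stand in the submitters' processing notes with no versions or roles. The annotation release and strand setting were not given in the sources used here. Values deposited by the authors are unnormalized whole counts of reads for 63677 genes, of which 5772 had no value and were left out.

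Counts were tested in R 4.3.3 with edgeR 4.0.16 (TMM, default filterByExpr, quasi-likelihood F test, Benjamini-Hochberg over 16471 genes, called below 0.05). Residual degrees of freedom were 3 for genotype and 2 for the fit of clones. Levels are CPM on TMM-scaled library sizes, and ratios of clone 6 replicate 2 are of CPM, with exact 95% counting intervals and a fold of 1.5. DESeq2 1.42.0 and other settings were alternatives. Setting the ratios against fewer libraries, and the background of genes with at least 20 CPM, were chosen after seeing the data. Lengths and overlaps came from GENCODE 29 by gene identifier. The scripts were tested on simulated data.

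Genes named with full values are those called and the 2 of highest mean CPM in each role, with the other members in brief. Of other lists, up to 4 called genes by lowest p are named, except for a result that is not reported here, and of further mitotic genes also the 4 of highest mean CPM. The members and lists were chosen with earlier results of these data known. Replicate numbers are shared by 2 pairs only and the labels give them no common source, so the fit without a replicate block is the one reported.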

Additional observations from a re-analysis of the deposited data

Results flagged for a closer look

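For 2 of the 34 genes the edited clones lay on opposite sides of wild type in every library (5.88%, against 2.37% of all genes). CENPE was above both wild-type libraries in clone 2 (267 CPM against 246 and 251 CPM) and below both in the clone 6 libraries (242 and 191 CPM). Its level in clone 6 replicate 1 was only just below the wild-type pair. KIF20A met the same condition but was barely above wild type in clone 2, with 264 CPM there, 261 and 260 CPM in wild type, and 253 and 152 CPM in clone 6. The log2 fold change of clone 6 against clone 2 was -0.30 for CENPE and -0.38 for KIF20A, and edgeR's test of that difference gave an adjusted p of 1 for each.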

How the results depend on the processing

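The genotype counts depended on the libraries and settings. Against 1 gene called higher and 2 lower, leaving out 1 library gave 0 to 6 higher and 0 to 9 lower, with both at 0 without either wild-type library, where 500 or 697 of all genes were called in place of 2822. Without a filter beyond 1 read there were 2 higher and 6 lower, and 4274 of all genes (5.88% higher, 7.36% lower). Summing clone 2 with clone 6 replicate 1, or adding the ribosomal RNA share as a covariate, left 1 lower, FOXM1, with 1520 and 2017 of all genes. With the replicate number as a block, 8 were lower (CCNA2, CDC25B, BUB1, CENPF, NUSAP1, PRC1, MKI67 and FOXM1) and all genes called went from 2822 to 4499, while the replicate differences of wild type and clone 6 correlated at 0.17 over all genes, from 2 pairs.

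For clone 6 against wild type, with 1 lower, the other size factors, a 1 CPM filter and DESeq2 gave 2 lower. That is 5.88% of the list, where 5.05 to 5.79% of all genes were called lower. No filter and the replicate block gave 4 lower each, or 11.8% of the list, against 5.21% and 8.29% of all genes. Leaving out 1 library gave 0 to 17 lower and medians of -0.34 to -0.040 (the latter without clone 6 replicate 2). The 17 came without clone 6 replicate 1, where 15.1% of all genes were called lower. Each clone was then 1 library, so the spread came from the wild-type pair alone. The spread within clone 6 was not measured in that fit. Clone 2 against wild type gave 0 to 5 higher and 0 to 2 lower on leaving out 1 library. Genes of the list were called there only with a clone 6 library left out, which again left the wild-type pair as the only spread. Without clone 6 replicate 2 there were 5 higher and 2 lower, where 9.48% of all genes were called higher and 12.2% lower. Clone 6 against clone 2 gave 0 to 6 lower. The 6 (PLK1, AURKA, CENPE, KIF11, KIF20A and MKI67, 17.6% of the list against 2.22% of all genes) came without clone 6 replicate 1. They too rest on the spread of the wild-type pair.

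For clone 6 replicate 2 the median log2 ratio to the other edited libraries, -0.28, was -0.27 with DESeq2 size factors, -0.33 with upper-quartile scaling and with total counts, -0.25 with no filter, and -0.29 to -0.27 on leaving out 1 library. That to wild type, -0.34, was -0.38 with upper-quartile scaling, -0.41 with total counts, and -0.34 to -0.32 on leaving out 1 library. At 2-fold, 1 gene (MKI67) was lower than the other edited libraries and 1 than wild type. The share of all genes past 2-fold was not counted, so these counts have no background beside them. TTK, at -0.02, was at 0.05 without clone 2 and at 0.01 without a filter, and ECT2, at 0.05, was at -0.01 with total counts. Scaling moved the median of all genes by at most 0.053 on the log2 scale. The lowest count behind any level of the list was 357 reads.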

Other observations

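GADD45A, a stress-induced gene whose product can bind and inhibit the CDK1 and cyclin B1 complex, was named after its values were seen. The wild-type replicates had 46.1 and 111 CPM, clone 2 had 62.4 CPM, and the clone 6 replicates 60.2 and 265 CPM. Clone 6 replicate 2 was 4.33-fold above the other edited libraries, and the wild-type replicates also differed from each other. The genotype test did not call it (log2 fold change 0.73, SE 0.719, edgeR adjusted p = 0.53).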
